A study of Mus musculus with 21 samples.

Results

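The unfolded protein response is described here through 35 genes, 14 of the ATF6 branch with the chaperones of the endoplasmic reticulum (ER), 13 of the XBP1 branch with ER-associated degradation and 8 of the PERK and ATF4 branch. Members were chosen by name. A gene was represented by the array probe whose RefSeq accession maps to its symbol and, where several probes did, by the one with the brightest mean liver signal. Of the 35 members 32 had such a probe, and all 32 were bright enough to enter the test among 17624 features, the genes and unnamed probes of the array. Atf6, which encodes the ER membrane factor that names the first branch, was not analysed here, nor were Dnajb11 and Pdia3, which encode an ER co-chaperone and a disulfide isomerase. The liver signal was well above background on all 21 arrays for 29 of the 32 members. The exceptions were Derl3 with 19 arrays, Ppp1r15a with 16 and Atf3 with 15.

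When unfolded protein accumulates in the ER, sensors in its membrane start a transcriptional programme. ATF6 is cut in the Golgi and the part released from it enters the nucleus, IRE1 splices the Xbp1 transcript so that an active factor is made, and PERK phosphorylates eIF2α, which slows translation in general while ATF4 is still made. ATF6 and XBP1 raise chaperones, folding enzymes and the machinery that sends misfolded proteins to the proteasome, and ATF4 raises genes of amino acid supply and, through CHOP, of cell death. Hepatocytes secrete most plasma proteins and keep a large ER, and in liver the programme also varies with feeding and with the time of day.

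The study asked whether particles deposited in the lung alter the liver. Female C57BL/6 mice, bought at 5 to 7 weeks of age and housed for 1 to 3 weeks before the start, were given a single intratracheal dose of 162 µg of titanium dioxide nanoparticles (nano-TiO2), and control mice were given vehicle alone. The vehicle, given to both arms, was saline with a share of cell-free lung lavage fluid from untreated mice. Liver RNA was taken 28 days later from 6 TiO2 and 4 control mice, and 1 day later from 6 TiO2 and 5 control mice, 1 array per mouse. Each array set liver RNA against a reference RNA pooled from 11 mouse cell lines, and every level below is the log2 of liver over reference for that probe. In RNA from whole liver a change in the number of cells of a type and a change in the RNA per cell cannot be told apart.

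All arrays carried a liver profile, and each had 13 of 13 hepatocyte markers above background, whose median level per array lay between 5.36 and 6.74 (log2). The extraction text in the labels names lung, while per array between 2 and 10 of 12 genes marking lung exceeded background and their median level was -0.14 to 0.19. The arrays were scanned on 3 days, each with arrays of all 4 groups, and scan day stood for 91.7% of the first principal component of all features, against 1.51% for the groups. On scan day 2 the liver channel had 20879 to 26616 probes above background, against 12985 to 16903 on the others. Many differences are therefore also given with scan day in the model or within each scan day.

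The 300 bases around the start of 31 members, 250 before and 50 after, were searched for 4 response elements on both strands (RefSeq promoter table, assembly GRCm38.p6). Atf6, Manf, Hyou1 and Derl1 had no window in the table used here. The ER stress response element, CCAAT and CCACG with 9 bases of any kind between them, read by ATF6 and XBP1 together with NF-Y, was in the window of 9 of 31 members, against 37 of 27025 genes (0.137%) in the whole table. Its second form, ATTGG and CCACG with 1 base between them, was in 2 members, Herpud1 and Dnajb11, and in 12 genes overall (0.0444%). The element of ATF4 with its C/EBP partners, TGATGNAA, was in Asns, Atf3, Chac1, Trib3 and Herpud1, and in 4.51% of all genes. The XBP1 core TGACGTGG was in 0 member windows and in 0.714% of all genes. The first-form sites of the members follow, 5′ to 3′ in the direction of the element, with its fixed bases in capitals. They are printed because the members with and without this form are described below by their correlation with Hspa5.
Hspa5, chr2:34772025-34772043: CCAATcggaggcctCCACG
Hsp90b1, chr10:86705638-86705656: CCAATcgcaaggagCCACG
Hsp90b1, chr10:86705533-86705551: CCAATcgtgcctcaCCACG
Calr, chr8:84847075-84847093: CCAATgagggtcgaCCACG
Canx, chr11:50325800-50325818: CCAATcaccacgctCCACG
Pdia6, chr12:17266491-17266509: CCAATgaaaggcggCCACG
Creld2, chr15:88819520-88819538: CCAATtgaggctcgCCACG
Dnajc3, chr14:118937827-118937845: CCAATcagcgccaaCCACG
Derl3, chr10:75893242-75893260: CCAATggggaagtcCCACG
Syvn1, chr19:6046532-6046550: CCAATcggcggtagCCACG

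The 250 bases before the start of Hspa5 and of Herpud1 are printed in full on the plus strand, because the other members were set against the first gene across mice and the second differed between days. In Hspa5 (chr2:34771840-34772089) the capitals mark the element, whose first base lies 65 bases before the start. In Herpud1 (chr8:94386179-94386428) the capitals mark the ATF4 element on the opposite strand and, nearer to the start, the second form of the ER stress response element.
Hspa5: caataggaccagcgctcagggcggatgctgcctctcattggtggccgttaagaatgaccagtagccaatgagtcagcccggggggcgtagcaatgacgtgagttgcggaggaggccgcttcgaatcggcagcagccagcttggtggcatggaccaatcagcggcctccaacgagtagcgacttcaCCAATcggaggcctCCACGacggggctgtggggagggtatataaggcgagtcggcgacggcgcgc
Herpud1: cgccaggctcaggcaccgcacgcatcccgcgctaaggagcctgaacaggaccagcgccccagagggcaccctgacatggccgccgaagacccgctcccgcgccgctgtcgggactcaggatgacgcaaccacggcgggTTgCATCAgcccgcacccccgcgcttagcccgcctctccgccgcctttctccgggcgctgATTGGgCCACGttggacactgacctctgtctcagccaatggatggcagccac
A match describes these letters and was not tested for binding.

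The chaperones varied widely between mice of the same group. The SD between mice, pooled over the 4 groups, had a median of 0.52 (log2) over the 11 tested members of the ATF6 branch, 0.30 over the 13 of the XBP1 branch and 0.36 over the 8 of the PERK and ATF4 branch. Hspa5, which encodes the master ER chaperone BiP, ranged from -0.33 over a median of 0.42 to 0.71 in TiO2 livers at day 28, against -1.45, -0.76, 0.48 and 0.53 in control livers. At day 1 it ranged from -1.71 over a median of 0.38 to 1.07 in TiO2 livers, against -0.47, -0.22, 0.32, 0.96 and 1.33 in control livers. The lowest mouse of all was TiO2 day 1 replicate 2, and the groups overlapped at both days.

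**Figure D1:**
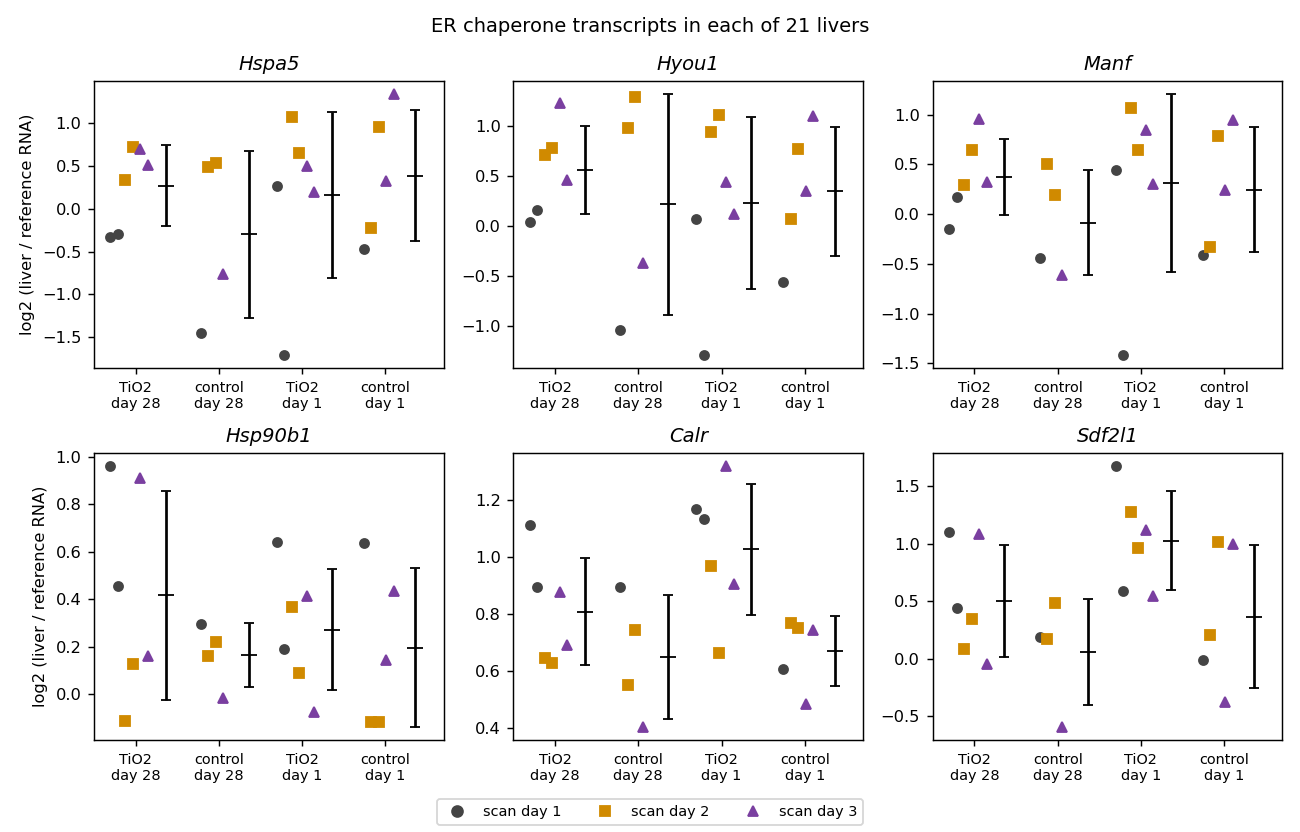
Levels of 6 ER chaperone transcripts as log2 of liver over reference (vertical axes), 1 point per mouse, with the symbol giving the scan day and the bar beside each group its mean and SD (6, 4, 6 and 5 mice from left to right). Hspa5, Hyou1 and Manf share a deep low in TiO2 day 1 replicate 2, and TiO2 and control livers overlap at both days for each gene.

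In TiO2 livers at day 28 every tested ATF6-branch member had a difference above 0 against control, although no member passed the test over all features. The 11 differences ran from 0.08 for P4hb to 0.57 for Hspa5 with a median of 0.32, against a median of 0.002 over all features, of which 50.7% lay above 0. Limma's adjusted p was under 0.05 for 0 of 32 members and for 0 of 17624 features (0.0%), also with scan day in the model. At an unadjusted p under 0.05 limma called 62 features higher (0.352%) and 98 lower (0.556%). Within scan days the branch median was 0.45, -0.03 and 0.74, so the 4 mice of scan day 2 did not show it. The median was 0.19 without control day 28 replicate 4 and 0.49 without control day 28 replicate 3. No member had groups that did not overlap, where 0.136% of all features were wholly above control and 0.153% wholly below. Kupffer cell and endothelial markers also lay above 0 in these livers, for 11 of 11 and 8 of 8 genes with medians of 0.17 and 0.20, and their part in the chaperone values was not tested. A higher median at day 28 was described before from these data, and the members share mice, so their common direction is not independent support.

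Pdia6, a protein disulfide isomerase, was the 1 member at day 28 with an unadjusted p under 0.05, where 0.352% of all features were higher at that level. Its level ranged from -0.33 over a median of -0.10 to 0.16 in TiO2 livers, against -0.52, -0.47, -0.31 and -0.14 in control livers. The groups overlapped, with 3 TiO2 mice above the highest control. The difference was 0.29 ± 0.13 (SE, 95% interval 0.02 to 0.56, n = 6 and 4, limma adjusted p = 1.00), and 0.06 and 0.26 at the 2 other probes of the gene. It was 0.53, -0.03 and 0.50 within scan days. At day 1 the Pdia6 difference was similar, 0.24 ± 0.12 (SE, limma unadjusted p = 0.060), and 0.13 and 0.39 at the other probes. Within scan days it was 0.09, 0.35 and 0.28 at day 1.

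With scan day in the model 3 members had an unadjusted p under 0.05 at day 28, all higher in TiO2 livers and all of the ATF6 branch, where 1.45% of all features were higher and 1.65% lower at that level. They were Hspa5 with a difference of 0.69, Canx with 0.43 and Pdia6 with 0.30. Canx encodes calnexin, the membrane lectin that holds glycoproteins during folding. Its level on scan day 1 lay between -2.24 and -0.77 in the 6 mice, against -0.63 to -0.09 in the 15 others, and the 2 other Canx probes gave differences of 0.05 and 0.17 without the block.

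At day 1 the ATF6 branch had no common direction, with 8 of 11 members above 0, where 47.7% of all features lay above 0, and a median of 0.07. Calr and Sdf2l1 were the members with an unadjusted p under 0.05 at that day, both higher, and no member was lower, where 0.987% of all features were higher and 0.738% lower at that level. No member had groups that did not overlap, where 0.0624% of all features were wholly above control and 0.0454% wholly below. Limma's adjusted p was under 0.05 for 0 of 32 members and for 0.0% of features in this comparison too. With scan day in the model 3 members were higher and 1 lower at an unadjusted p under 0.05, where 2.18% and 1.9% of all features were. The higher ones were Calr with 0.33, Sdf2l1 with 0.65 and Dnajc3, a BiP co-chaperone of the XBP1 branch, with 0.30, and the lower one was Ddit3.

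Calr encodes calreticulin, the soluble lectin partner of calnexin. It ranged from 0.66 over a median of 1.05 to 1.32 in TiO2 livers at day 1, against 0.48, 0.61, 0.74, 0.75 and 0.77 in control livers. Of the 6 TiO2 mice 5 lay above every control. The difference was 0.36 ± 0.12 (SE, limma adjusted p = 1.00), a ratio of 1.28, and 0.11 at the other Calr probe. Within scan days it was 0.55, 0.06 and 0.50.

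Sdf2l1, a subunit of the ER chaperone complex around BiP, ranged from 0.54 over a median of 1.04 to 1.67 in TiO2 livers at day 1. In control livers it stood at -0.38, -0.02, 0.20, 1.00 and 1.01. Control mice fell into 3 low and 2 high values, and the groups overlapped. The difference was 0.66 ± 0.28 (SE, limma adjusted p = 1.00), and it was above 0 on each scan day (1.15, 0.51 and 0.52). At day 28 it was 0.44 ± 0.30.

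**Figure D2:**
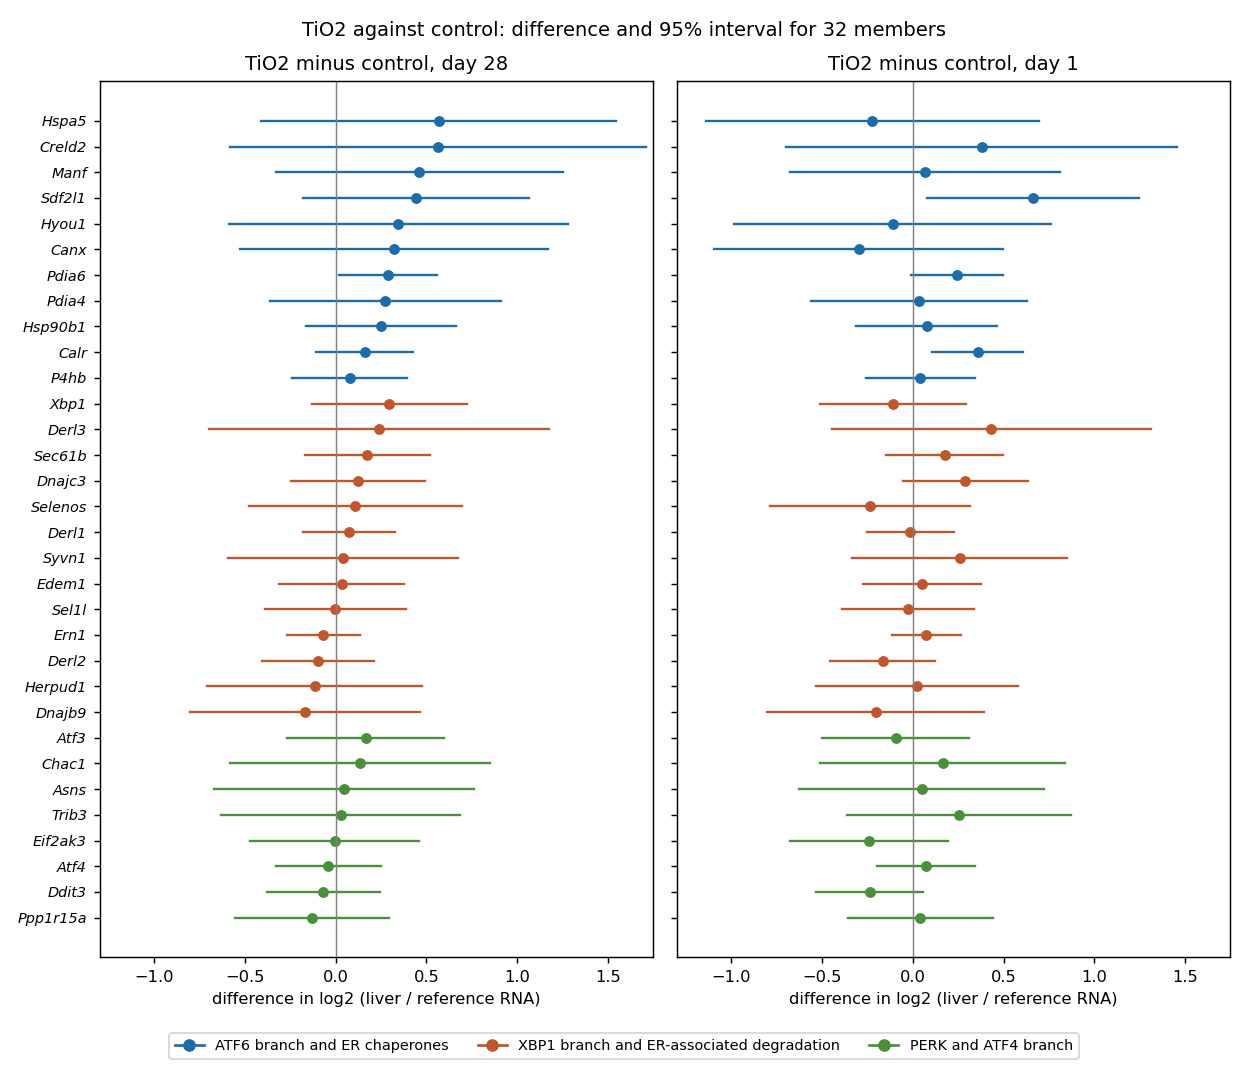
TiO2 minus control for the 32 tested members at day 28 (left) and day 1 (right), as the difference in log2 of liver over reference (horizontal axis) with its 95% interval from limma, without scan day in the model; colours give the branch. The 11 chaperone points lie above 0 at day 28 and the interval of Pdia6 alone excludes 0, and the PERK and ATF4 genes lie around 0 at both days.

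The remaining chaperones had wide intervals. Hyou1, the BiP-related nucleotide exchange factor of the ER, differed by 0.35 ± 0.45 at day 28 and by -0.11 ± 0.42 at day 1. Manf, a small ER protein that binds BiP, differed by 0.46 ± 0.38 and by 0.07 ± 0.36 at these days. Hsp90b1, which encodes the ER form of HSP90, differed by 0.25 ± 0.20 and by 0.08 ± 0.19 (SE, limma adjusted p = 1.00 in each case). With scan day in the model these were 0.49 and 0.04 for Hyou1, 0.54 and 0.17 for Manf, and 0.20 and 0.03 for Hsp90b1, so Hyou1 at day 1 turned its sign. The other Hsp90b1 probe gave 0.13 at day 28 and 0.40 at day 1 without scan day in the model, so its larger difference was at day 1.

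The effect of TiO2 did not pass the test of a difference between the days for any member. For Hspa5 the effect at day 28 minus that at day 1 was 0.79 ± 0.65 (SE, 95% interval -0.55 to 2.13, limma adjusted p = 1.00). Over all features 0.0% passed in this comparison. With scan day in the model Canx alone of the members had an unadjusted p under 0.05, higher, where 1.84% of all features were higher and 1.13% lower. Without scan day in the model the Canx probe used gave 0.62 for this difference, and the 2 other Canx probes gave 0.05 and 0.03. For the ATF6 branch the median of this difference was 0.18, and within scan days 0.53, -0.48 and 0.67.

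The XBP1 branch had medians near 0 in both TiO2 comparisons. At day 28 it had 8 of 13 members above 0 with a median of 0.04, and at day 1 it had 7 of 13 with a median of 0.02. The files do not say whether the Xbp1 probe tells the spliced transcript from the unspliced one. Its level ranged from 0.72 over a median of 0.78 to 1.27 in TiO2 livers at day 28, against 0.26, 0.41, 0.58 and 1.11 in control livers. At day 1 it ranged from 0.39 over a median of 0.70 to 1.53 in TiO2 livers, against 0.49, 0.70, 0.92, 0.95 and 1.37 in control livers. Its differences of 0.30 ± 0.21 at day 28 and -0.11 ± 0.19 at day 1 (SE, limma adjusted p = 1.00) were 0.29 and -0.16 with scan day in the model.

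The PERK and ATF4 branch gave 4 of 8 members above 0 at day 28 (median 0.01) and 5 of 8 at day 1 (median 0.04). Atf4, the factor of this branch, ranged from -1.45 over a median of -1.12 to -0.90 in TiO2 livers at day 28, against -1.37, -1.24, -1.01 and -0.75 in control livers. At day 1 it ranged from -1.58 over a median of -1.18 to -0.98 in TiO2 livers, against -1.58, -1.34, -1.24, -1.23 and -1.12 in control livers. Its groups overlapped at both days, with differences of -0.04 ± 0.14 and 0.07 ± 0.13 (SE), and -0.07 and 0.07 with scan day in the model.

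Ddit3, which encodes the pro-apoptotic factor CHOP, was lower in liver than in the reference on every array. It ranged from -2.65 over a median of -2.42 to -2.15 in TiO2 livers at day 1, against -2.45, -2.42, -2.08, -2.02 and -1.87 in control livers. The difference was -0.24 ± 0.14 (SE), and -0.27 with scan day in the model, where its unadjusted p of 0.02 stood beside 1.9% of all features that were lower at that level and its limma adjusted p was 0.993. At day 28 Ddit3 differed by -0.07 ± 0.15. Within each scan day its difference was below 0 at both days, between -0.43 and -0.06.

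Eif2ak3, the gene of the sensor PERK, differed by -0.01 ± 0.22 at day 28 and by -0.24 ± 0.21 at day 1. Its control mice were spread widely, at -0.46, -0.13, 0.20 and 0.95 at day 28 and at -0.02, 0.20, 0.22, 0.73 and 1.09 at day 1, around TiO2 mice that lay between -0.16 and 0.45. Asns, asparagine synthetase and a classical ATF4 target, was far below the reference, at -6.05 to -4.21 in TiO2 livers and -5.82 to -4.08 in control livers. Its differences were 0.05 ± 0.34 at day 28 and 0.05 ± 0.32 at day 1, and -0.10 and -0.08 with scan day in the model, which turned both signs. Atf3, a stress-induced repressor, differed by 0.17 ± 0.21 and by -0.09 ± 0.20, and was above background in 8 of 10 mice at day 28 and 7 of 11 at day 1. Chac1, Trib3 and Ppp1r15a, targets of ATF4 or CHOP, had differences from -0.13 to 0.25 at the 2 days.

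Genes of the same pathways outside the 35 members behaved likewise, with a limma adjusted p under 0.05 for 0 genes in each of 4 lists in either TiO2 comparison. Of 42 genes of ER translocation, secretion and degradation 35 lay above 0 at day 28, with a median of 0.08. At day 1 it was 26 of 42, with a median of 0.03. Within scan days the median of this list at day 28 was 0.09, -0.01 and 0.17. Among these genes Sec61a1, the channel of the ER translocon, differed by 0.26 ± 0.11 at day 28 (unadjusted p = 0.032, limma adjusted p = 1.00), with 0.32, 0.04 and 0.41 within scan days. Of 24 further folding and disulfide genes 16 lay above 0 at day 28 and 12 at day 1. Sil1, the nucleotide exchange factor of BiP, differed by 0.28 ± 0.11 at day 1, with 0.90, -0.04 and 0.16 within scan days. Fkbp11, an ER prolyl isomerase, differed by 0.31 ± 0.19 at that day.

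Of 34 further genes of the integrated stress response 19 lay above 0 at day 28 and 20 at day 1. Cebpb, a factor of the acute phase response that also pairs with ATF4, differed by 0.72 ± 0.29 at day 1 (unadjusted p = 0.020, limma adjusted p = 1.00), and its difference was at least 0.47 on each scan day. Ddit4, an inhibitor of mTORC1, differed by 0.65 ± 0.33 at that day. Of 17 sensors, proteases and ER factors 12 lay above 0 at day 28 and 9 at day 1, with Traf2, an adaptor of IRE1, at -0.18 ± 0.13 and Bak1, a pore-forming protein of apoptosis, at 0.13 ± 0.10 at day 1.

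Herpud1 was higher at day 28 than at day 1 in both arms. It encodes an ER membrane protein that joins the degradation complex around the ligase HRD1. In TiO2 livers it ranged from 1.99 over a median of 2.43 to 2.64 at day 28, against 0.99 over a median of 1.84 to 2.36 at day 1. In control livers it stood at 1.99, 2.61, 2.66 and 2.68 at day 28, against 0.76, 1.15, 2.11, 2.18 and 2.25 at day 1. The days overlapped in either arm, with 3 mice of each arm at day 28 above the highest mouse of that arm at day 1. The difference between days was 0.66 ± 0.26 in TiO2 mice (SE, unadjusted p = 0.017, limma adjusted p = 1.00) and 0.80 ± 0.30 in control mice (unadjusted p = 0.014, limma adjusted p = 1.00). Herpud1 was the 1 member with an unadjusted p under 0.05 in either arm. In the TiO2 arm 2.14% of all features were higher and 1.6% lower at that level, and in the control arm 1.81% and 1.21%. The adjusted test was passed by 0.034% of features in the TiO2 arm and 0.0% in the control arm, with 0 members among them. With scan day in the model 2 members were higher and 3 lower in each arm, where 4.79% and 3.94% of features were in the TiO2 arm and 3.9% and 3.84% in the control arm. Within scan days the TiO2 arm gave 1.37, 0.21 and 0.40 and the control arm 1.24, 0.43 and 1.03, above 0 in 6 of 6 cases.

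The 2 arms share no mice, so their mean was also tested, a comparison added after these values were seen. Over both arms Herpud1 differed by 0.73 ± 0.20 (SE, limma adjusted p = 0.224), and by 0.75 ± 0.16 with scan day in the model (limma adjusted p = 0.033). Without scan day 16 features passed (0.0908%) and 0 members, and with it 128 features (0.726%), among them Herpud1 alone of 32 members. The call was kept in 12 of 21 fits that left out 1 mouse each and in 4 of 8 with other processing, over which the adjusted p ran from 0.015 to 0.225 and the difference from 0.50 to 0.88. It was lost without control day 28 replicates 1, 2, 3 or 4, control day 1 replicates 1 or 5, TiO2 day 28 replicate 1, or TiO2 day 1 replicates 1 or 3, with an adjusted p of 0.053 to 0.066. Mice at day 28 were also older, and age, the day of death and the time after instillation cannot be told apart.

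**Figure D3:**
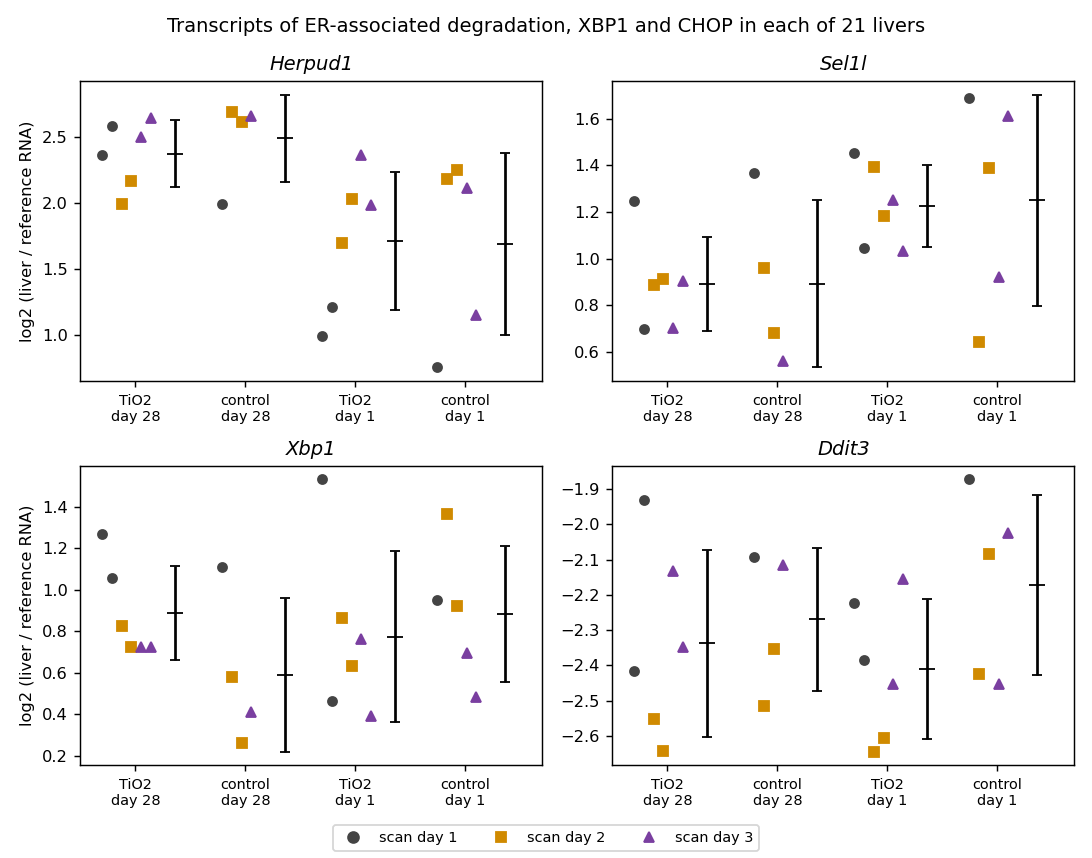
Levels of Herpud1, Sel1l, Xbp1 and Ddit3 as log2 of liver over reference (vertical axes), 1 point per mouse, with the symbol giving the scan day and the bar beside each group its mean and SD (6, 4, 6 and 5 mice from left to right). Herpud1 averaged 2.37 in TiO2 livers and 2.49 in control livers at day 28, against 1.71 in TiO2 livers and 1.69 in control livers at day 1, and Sel1l lay lower at day 28 in both arms.

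Sel1l, Pdia4 and P4hb lay lower at day 28, and none passed the adjusted test over all 21 mice. Sel1l, the adaptor of HRD1, ranged from 0.70 over a median of 0.89 to 1.25 in TiO2 livers at day 28, against 1.03 over a median of 1.22 to 1.45 at day 1. In control livers it stood at 0.56, 0.68, 0.96 and 1.37 at day 28, against 0.64, 0.92, 1.39, 1.61 and 1.69 at day 1. Over both arms the difference was -0.35 ± 0.13, and -0.35 ± 0.12 with scan day in the model (SE, limma adjusted p = 0.580 and 0.168). In the model with scan day its adjusted p was 0.036 without control day 1 replicate 2. The other Sel1l probe gave -0.19 in each arm. Sel1l lay below day 1 on each scan day in each arm, and Herpud1 above it.

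Pdia4, a disulfide isomerase, ranged from 0.91 over a median of 1.11 to 1.93 in TiO2 livers at day 28, against 0.91 over a median of 1.38 to 2.43 at day 1. In control livers it stood at 0.37, 1.03, 1.17 and 1.18 at day 28, against 0.80, 1.11, 1.5, 1.62 and 2.60 at day 1. Over both arms it differed by -0.47 ± 0.21, and by -0.50 ± 0.13 with scan day in the model (SE, limma adjusted p = 0.707 and 0.085). In the model with scan day its adjusted p was 0.040 without control day 1 replicate 2 and 0.041 without control day 1 replicate 4. P4hb, the main disulfide isomerase of the ER, differed by -0.26 ± 0.11 (SE, limma adjusted p = 0.646). Asns of the PERK and ATF4 branch also lay lower at day 28 over both arms. It differed by -0.35 ± 0.24, and by -0.34 ± 0.09 with scan day in the model (SE, limma adjusted p = 0.947 and 0.086). In the model without scan day 1 member was higher and 3 were lower at an unadjusted p under 0.05, where 3.71% and 2.71% of all features were, and with scan day in the model 2 and 6 members, where 6.65% and 6.56% of all features were.

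Ern1, which encodes the sensor IRE1, was the 1 member whose groups did not overlap, in control livers only. It stood at 0.44, 0.48, 0.49 and 0.58 at day 28, against 0.12, 0.21, 0.35, 0.35 and 0.41 at day 1, a difference of 0.21 ± 0.10 (SE, limma adjusted p = 1.00), where 0.431% of all features were wholly above and 0.255% wholly below. With scan day in the model that difference was 0.22 (limma unadjusted p = 0.033, adjusted p = 0.620). In TiO2 livers it ranged from 0.29 to 0.59 at day 28, against 0.07 to 0.58 at day 1, which overlapped. Derl3, an ER degradation gene with high levels in secretory cells, differed by -0.71 ± 0.40 in TiO2 livers and -0.52 ± 0.47 in control livers, with 19 arrays above background.

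In control livers the ATF6 branch lay lower at day 28 for 11 of 11 members, with a median of -0.26, while 48.6% of all features lay above 0. The median was -0.34, 0.05 and -0.84 within scan days, -0.14 without control day 28 replicate 4 and -0.42 without control day 28 replicate 3. At other probes of these genes the same comparison gave 0.15 for Hsp90b1 and 0.03 and -0.29 for Pdia6. It gave -0.28 for Calr and -0.13 and -0.16 for Canx. In TiO2 livers 6 of 11 lay lower, with a median of -0.08, while 51.2% of all features lay above 0. The controls at day 28 stand in this comparison and in that of TiO2 at day 28, so the 2 results share those 4 mice. Of the 4, replicates 1 and 4 had the lowest Hspa5 levels, -1.45 and -0.76.

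Across mice of the same group most chaperones went up and down together. The levels of each gene were reduced to residuals, the deviation of a mouse after its group mean and its scan-day mean were removed. The residuals of Hspa5 and Hsp90b1 correlated over 21 mice with Pearson r = 0.65 (permutation p = 0.00181, adjusted over 3 pairs p = 0.00543) and Spearman rho = 0.68 (p = 0.00097, adjusted p = 0.00291, two-sided, 100000 permutations within scan days). The permutations exchanged residuals across groups and took no account of the means removed before, so the permutation p values here and below may be too small. Without the 2 mice farthest from the median of Hspa5, TiO2 day 1 replicate 2 and control day 1 replicate 2, r was 0.63, and within scan days it was 0.66, 0.74 and 0.62 over 6, 8 and 7 mice. With the scan-day means left in, r was -0.07 (permutation adjusted p = 0.778). On scan day 1 Hspa5 lay between -1.71 and 0.26, against -0.76 to 1.33 on the others, and Hsp90b1 between 0.19 and 0.96, against -0.12 to 0.91.

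The other fixed pairs did not pass. Dnajb9, the co-chaperone ERdj4 and a classical XBP1 target, had r = 0.42 and rho = 0.25 with Hspa5 (permutation p = 0.083 and 0.307, adjusted p = 0.125 and 0.307), and r = 0.05 without the 2 farthest mice, on which it rested. Ddit3 had r = 0.25 and rho = 0.32 (permutation p = 0.301 and 0.173, adjusted p = 0.301 and 0.259), and r = 0.13 without those mice. Whether these coefficients differ from that of Hsp90b1 was not tested.

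The 28 further pairs were computed after the data were seen and are given as a description with no p. An r of at least 0.5 was reached by 14 of the 31 pairs, against 3.94% of 17409 features. By branch it was 8 of 10 chaperones with a median r of 0.63, 6 of 13 XBP1-branch members with a median of 0.42, and 0 of 8 members of the PERK and ATF4 branch with a median of -0.30. Manf and Hyou1 were the 2 features of all 17409 nearest to Hspa5, with r = 0.92 and 0.91 and rho = 0.88 and 0.92. Without the 2 farthest mice they had 0.85 and 0.88, and within scan days 0.90 to 0.94 and 0.87 to 0.96.

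Below them stood Creld2, an ER protein that can also be secreted, and Edem1, the mannosidase-like protein that hands glycoproteins to degradation, with 0.75 each, and Sdf2l1 with 0.71. Derl3 had 0.67, Selenos, a selenoprotein of the degradation complex, 0.64, Dnajc3, a BiP co-chaperone, 0.63, and Pdia4 0.62. Sel1l with 0.61 and Syvn1, the ligase HRD1, with 0.56 had 0.34 and 0.36 without the 2 farthest mice, and Canx with 0.52 had 0.42. Of the chaperones Calr with 0.20 and P4hb with 0.12 were lowest. In the XBP1 branch Xbp1 had 0.14, Derl1 0.08, Sec61b 0.01, Derl2 -0.19 and Ern1 -0.20. Herpud1, the member with the difference between days, had -0.19.

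**Figure D4:**
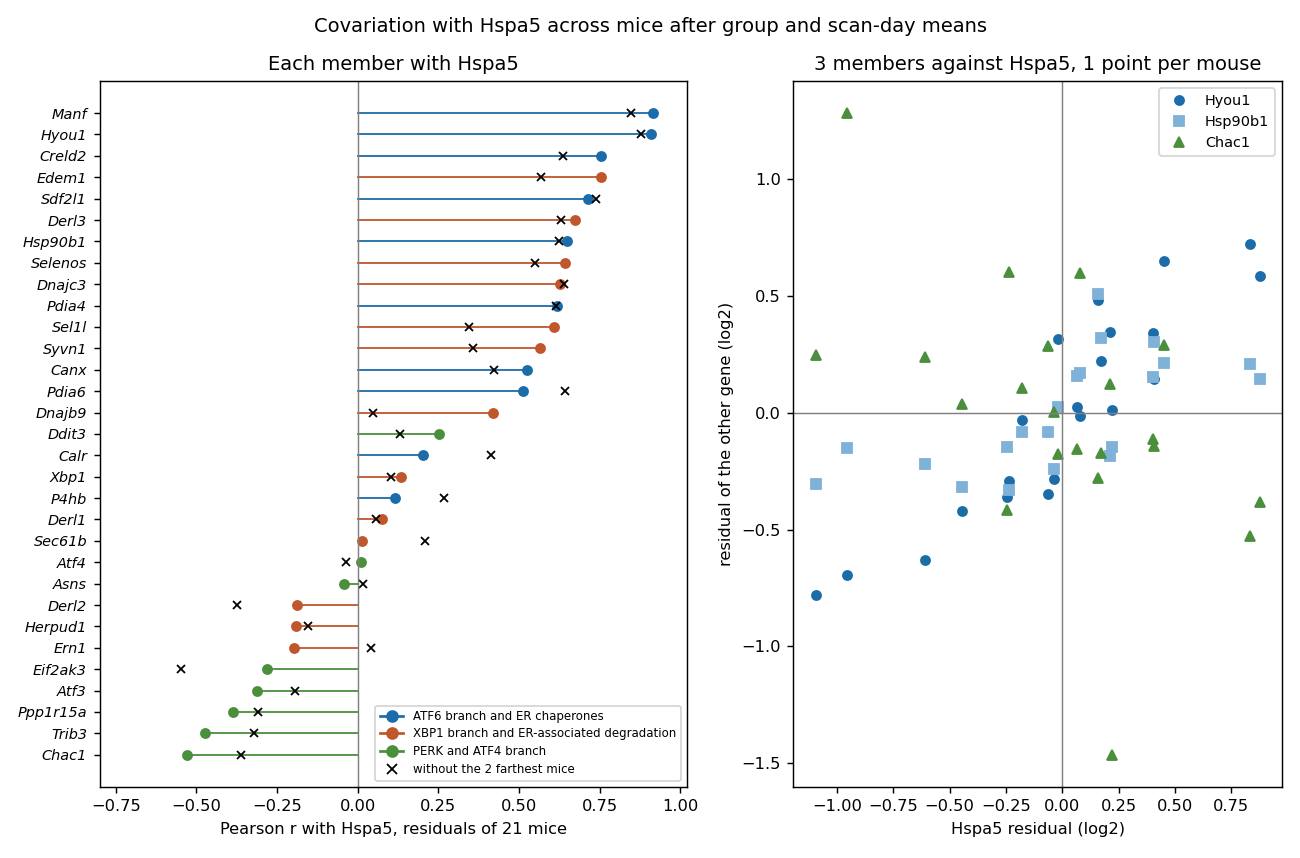
Left, Pearson r of each of 31 members with Hspa5 over the residuals of 21 mice (horizontal axis), with colours for the branch and crosses for r without the 2 farthest mice. Right, residuals of Hyou1, Hsp90b1 and Chac1 (vertical axis, log2) against those of Hspa5 (horizontal axis, log2), 1 point per mouse; Hyou1 follows Hspa5 with r = 0.91 and Chac1 has r = -0.53.

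In 3 targets of ATF4 or CHOP, named after their values were seen, r was below 0. Chac1, a glutathione-degrading enzyme, had r = -0.53 with Hspa5, Trib3, a pseudokinase, -0.47, and Ppp1r15a, the phosphatase subunit that reverses PERK signalling, -0.39. Without the 2 farthest mice these were -0.36, -0.32 and -0.31, and each was below 0 on all 3 scan days. Of the other genes of that branch Atf3 had -0.31 and Eif2ak3 -0.28, and -0.19 and -0.55 without the 2 farthest mice. Asns had -0.04, Atf4 0.01 and Ddit3 0.25.

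By the promoter search, 7 of the 8 other tested members with the ER stress response element had an r of at least 0.5, all but Calr, with a median of 0.60. Of the 20 with a window and without this first form of the element 5 had such an r, with a median of 0.01. These 20 include all 8 members of the PERK and ATF4 branch, of which 0 had such an r, and Herpud1, which has the second form. The members with the first form are all of the ATF6 or XBP1 branch, and the part of the branch in this contrast was not tested. Manf and Hyou1 are among the 3 without a window.

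**Figure D5:**
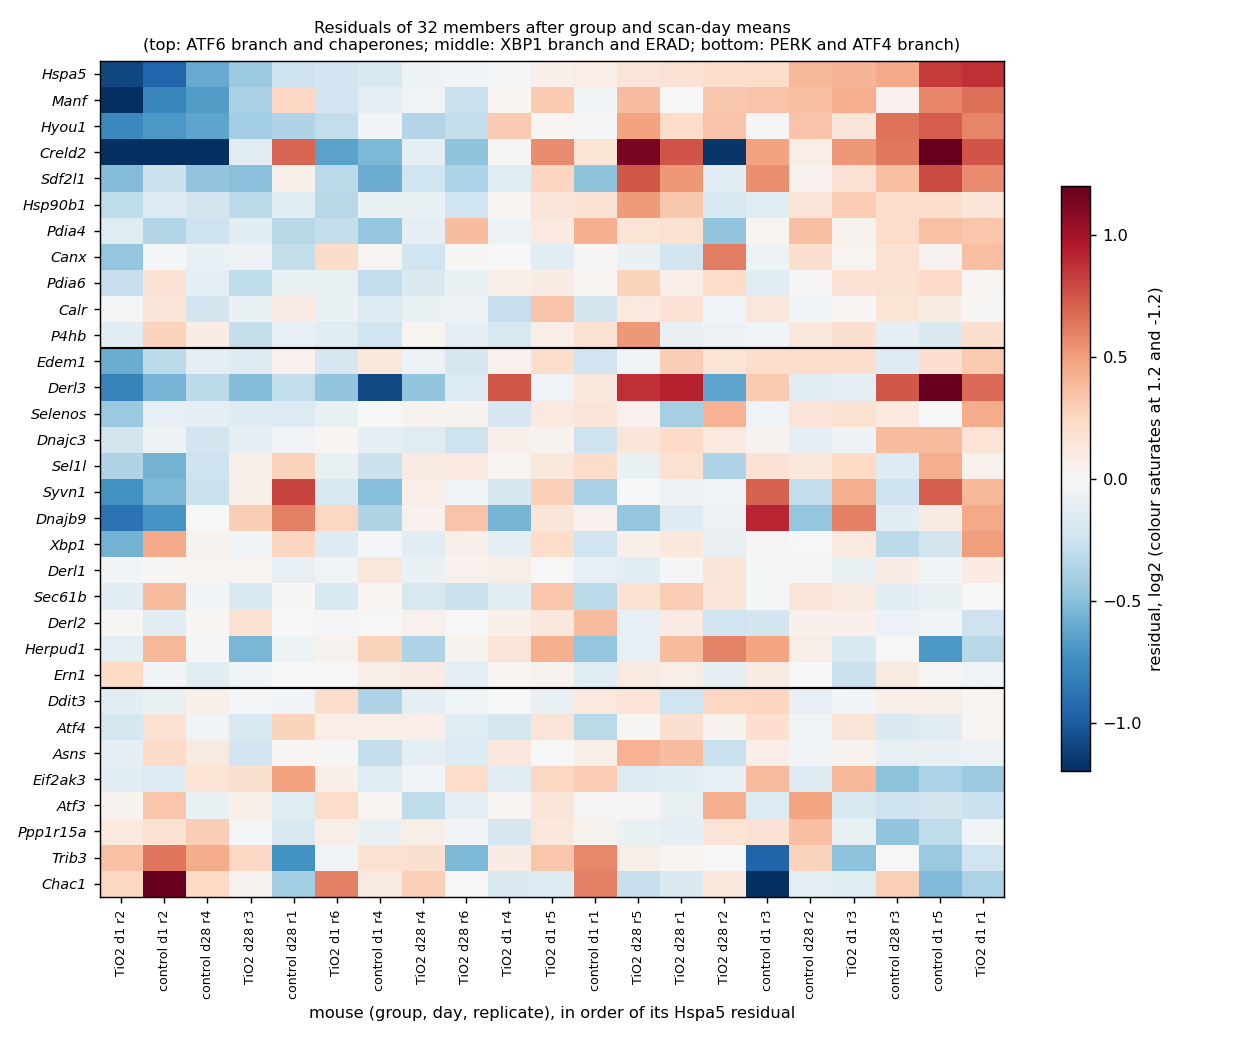
Residuals of the 32 members (rows, by branch, each in order of its correlation with Hspa5) in the 21 mice (columns, in order of their Hspa5 residual), in log2 after group and scan-day means, red above and blue below 0. The lows on the left and the highs on the right run through most chaperone rows and part of the XBP1-branch rows, and both ends hold TiO2 and control mice.

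The mice at the ends of this axis came from both arms. The residuals of Hspa5 were lowest in TiO2 day 1 replicate 2 (-1.09) and control day 1 replicate 2 (-0.95). Of 8 other measures of the same arrays none passed after adjustment. The median level of 13 hepatocyte markers had r = 0.42 and rho = 0.46 with Hspa5 (permutation p = 0.054 and 0.0388, adjusted over 8 measures p = 0.323 and 0.205), and r = 0.27 without the 2 farthest mice. The median level of 12 B and plasma cell markers, which include Derl3 itself, had r = 0.37 and rho = 0.43 (permutation p = 0.0921 and 0.0512, adjusted p = 0.323 and 0.205), and r = 0.36 without those mice. In that list Prdm1, Irf4 and Tnfrsf17 were above background on 0 of 21 arrays and Jchain, Mzb1 and Sdc1 on 21, with 5 to 9 of the 12 above it per array. The list's median level ranged from -1.56 to -0.64 in TiO2 livers and -1.22 to -0.85 in control livers at day 28, and from -1.29 to -0.61 in TiO2 livers and -1.28 to -0.64 in control livers at day 1. The number of liver probes above background had r = -0.30 and rho = -0.24 (permutation p = 0.185 and 0.307, adjusted p = 0.323 and 0.491), and r = -0.08 without the 2 mice. Markers of lung, neutrophils, Kupffer cells, endothelium and exocrine pancreas had r from -0.36 to 0.31 (permutation adjusted p from 0.323 to 0.840). The part of these measures in the covariation was not tested.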

How the data were processed

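Liver RNA of 21 mice was hybridised on 2-colour Agilent arrays, with liver in Cy5 and the common reference in Cy3 and no dye swap, so dye bias remains in levels. The deposited scanner files give spot and background intensities, read with Agilent Feature Extraction 10.7.3.1 per the file headers, and version 9.5.3.1 per the submitters' processing notes. Their LogRatio column is the log10 of red over green, per the file headers. The deposited value table is close to log2 of liver over reference, and how the authors centred it stays unknown. Its r was 0.996 to 0.997 with log ratios computed here without background subtraction, an alternative to the main values. Its column medians were -0.058 to -0.011. The design text counts more arrays than were analysed here.

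Median intensities were background-corrected (limma 3.58.1, R 4.3.3, normexp, offset 50) and loess-normalized within arrays, with control spots at weight 0. Per array 72 to 324 deviant spots took the array's median background in the fit and were then left out, since the fit on all spots failed on 3 arrays. Spots were averaged per probe. Probes had to be above background on 50% of the arrays of at least 1 group. RefSeq accessions named 23374 of 41174 probes, and the brightest probe stood for a gene. The columns of other series' samples numbered 0.

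Group means of 21 arrays were compared with limma (Benjamini-Hochberg, adjusted p under 0.05 over 17624 features). Scan day as a block, within-day differences, other corrections and normalizations, the deposited table and leaving out each mouse were tried. The number of arrays limits precision. Named members were the factor of each branch and the up to 4 others with the smallest unadjusted p over 5 contrasts, and the 2 such genes of each further list, of which 1 is not reported here. Hspa5, Hsp90b1, Dnajb9 and Ddit3 came from 3 fixed pairs, and further members were named after their values were seen. Members, lists and tests were chosen with earlier results of these data known. The limma fit was tested on simulated data. Mice are separate animals.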

Additional observations from a re-analysis of the deposited data

Results flagged for a closer look

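In 10 of 128 sets of gene and group (7.81%) 1 mouse lay far from all others of its group, by the ratio of its gap to the group's range. About 1 set in 20 is expected to do so by chance.

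TiO2 day 1 replicate 2 was low for 2 chaperones, with Hspa5 at -1.71 (others 0.20 to 1.07) and Manf at -1.42 (others 0.31 to 1.06). Sec61b, a subunit of the translocon, was high in TiO2 day 1 replicate 5 at 0.60 (others -0.20 to 0.09). Among TiO2 livers at day 28 Pdia4 was high in replicate 1 at 1.93 (others 0.91 to 1.28), Dnajb9 low in replicate 5 at 1.23 (others 1.80 to 2.10) and Dnajc3 low in replicate 6 at 2.02 (others 2.42 to 2.63).

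Control day 1 replicate 1, the 1 mouse of its group on scan day 1, stood apart for 3 genes. Canx was at -1.64 (others -0.39 to -0.33), Selenos at 0.41 (others 0.99 to 1.09) and Derl2, a channel protein of ER degradation, at 2.79 (others 1.85 to 2.07). Control day 28 replicate 1, also the 1 mouse of its group on scan day 1, had Herpud1 at 1.99 (others 2.61 to 2.68).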

How the results depend on the processing

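The counts of features past the adjusted test moved with the setting, and the cause was not tested. For TiO2 against control at day 1 the count of 0 became 3 with slide as a random block and 1 with array weights, and 0 to 3 without 1 mouse each (3 without TiO2 day 1 replicate 2). At day 28, and for the difference between the days, it was 0 in all settings tried. For control mice between days the count of 0 became 4 with array weights and 0 to 1 without 1 mouse each (1 without control day 1 replicate 4). For TiO2 mice between days the count of 6 became 19 with scan day as a block, 31 with slide as a random block, 14 with array weights, 3 with an offset of 10, 3 with all spots in the background fit, 2 with scale normalization and 1 with the scanner's LogRatio. It was 1, 0 and 0 without scan days 1, 2 and 3, and 0 without the 3 arrays whose background fit failed, and fewer arrays enter those fits.

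For both arms between days, a comparison added after seeing the data, the count of 16 became 128 with scan day as a block. With that block it was 40 with an offset of 10, 97 without background subtraction, 109 with quantile and 34 with scale normalization, 52 with LogRatio, 104 with the deposited table, 159 with the liver channel alone and 12 with all spots in the background fit. Without control day 1 replicates 1 to 5 it was 48, 257, 60, 163 and 35. Without control day 28 replicates 1 to 4 it was 78, 71, 45 and 59. Without TiO2 day 1 replicates 1 to 6 it was 53, 99, 40, 94, 83 and 91, and without TiO2 day 28 replicates 1 to 6 it was 65, 90, 114, 81, 73 and 125.

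The correlation of Hspa5 with Hsp90b1 was -0.0655 and that with Ddit3 -0.32 when scan-day means were kept. It was 0.59 to 0.72 for Hsp90b1 without 1 mouse each. For Dnajb9 it was 0.19 without TiO2 day 1 replicate 2 and 0.52 at most, with an adjusted p of 0.0468 in 1 such fit.

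Of 7515 values of single genes and lists under these alternatives 7342 moved by less than the spread between mice and stayed on their side of the threshold. A further 156 moved by more, and 17 were past the threshold only in the alternative. All 17 were Herpud1 over both arms between days, in fits with scan day as a block. Another sign was taken by 776 of the 7515 values, none of them past the threshold, and 718 of these moved by less than the spread. The ATF6-branch median at day 28 ran from -0.03 to 0.74, and that of control mice between days from -0.84 to 0.05. Of the values that moved by more or crossed the threshold 122 were differences within 1 scan day. No paired analysis was possible because replicate numbers follow the order of deposit and pair no mice. Signals near background limit Atf3, Ppp1r15a and Derl3.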

Other observations

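After Manf and Hyou1, the named features whose residuals were most like those of Hspa5 among 17409 were Prepl with Pearson r = 0.89, Hspa13, a chaperone of the HSP70 family in microsomes, with 0.88, and Gmppb, which makes GDP-mannose for glycosylation, with 0.87. Sec22b, a SNARE protein of transport between ER and Golgi, also had 0.87. Next came Eif1b with 0.83 and Hexim1 with 0.82, then Icmt and Mmp14 with 0.81 each and Dcun1d3 with 0.80. In the same range, Nus1 and Dpagt1, which act in the making of dolichol-linked sugars, had 0.81 and 0.80. Sec23b, a coat subunit of vesicles leaving the ER, had 0.81. The median r over all features was 0.004. These are descriptions over 21 mice, chosen by their rank after seeing the values, and the genes share arrays.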
